A study of Mus musculus with 272 samples.

Results

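The chromatin of dystrophin and its complex was described in mouse muscle stem cells (MuSCs) through 8 genes: *Dmd*, *Utrn*, *Dag1*, *Sgca*, *Sgcb*, *Sgcd*, *Sntb1* and *Dtna*. They were taken by gene name from the GENCODE M21 annotation of mm10, where they are 8 of 55413 genes and 8 of the 21938 protein-coding genes. The rule for choosing them used no measured value, but the choice was made with earlier results of these data known. MuSCs were sorted as GFP+ cells from the hindlimb muscles of Pax7Cas9 mice, in which Cre expressed from *Pax7* switches on Cas9 and EGFP at the *Rosa26* locus, so that the gate holds cells with a history of *Pax7* expression. ATAC-seq, which finds open chromatin, and ChIP-seq for H3K4me3, H3K27me3 and H3K27ac were each done on 2 replicates, which gives 8 libraries of the 272 samples of the series. The other samples were not analysed here. Every one of the 8 libraries comes from the same kind of cell and genotype, and the labels name no treatment, age or guide for them. No condition is therefore compared with another, and the replicates show only how far 2 libraries of 1 feature differ. Nothing in the labels says that they came from separate mice, so this spread may be technical.

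Dystrophin is a long rod-shaped protein under the membrane of the muscle fibre. It ties the actin cytoskeleton to dystroglycan, a receptor cut from a single precursor into an outer subunit that binds laminin and a subunit that crosses the membrane. Sarcoglycans brace this link in the membrane, while syntrophins and dystrobrevins bind dystrophin on the inner side and dock signalling proteins. Utrophin is the autosomal relative of dystrophin and can take its place. Loss of dystrophin causes Duchenne muscular dystrophy, loss of a sarcoglycan a limb-girdle muscular dystrophy. *Dmd* is among the longest genes known and has several start sites, which give full-length dystrophin from the 5′ end and shorter products from starts inside the gene. In MuSCs, dystrophin has been described to act in cell polarity and asymmetric division through the kinase Mark2.

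H3K4me3 marks promoters in use, H3K27ac marks active promoters and enhancers, and H3K27me3 marks genes silenced by Polycomb. Each library is a list of peaks called by the authors with MACS2, and the fold enrichment given here is theirs, at the summit of a peak over its local background. ATAC-seq listed 140937 and 94574 peaks in replicates 1 and 2, H3K4me3 20519 and 18006, H3K27ac 24217 and 18589, and H3K27me3 6080 and 10485. Without read numbers the depth is unknown, so folds are ranked only within a list, and a site without a listed peak is unlisted rather than shown to be unmarked. Of 13 marker genes of MuSCs, 12 had promoter peaks of H3K27ac, H3K4me3 and ATAC-seq in each replicate, against 46.2% of all protein-coding genes. The same held for 2 of 10 myofibre markers, 3 of 10 of fibro-adipogenic cells, 1 of 10 of endothelium, 1 of 9 of blood, 0 of 10 of neurons and 4 of 8 of Schwann cells, the last close to the share of all genes.

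All 8 genes were open at a start site. A promoter was taken as 3 kb on either side of an annotated start, and a gene was called marked if both replicates listed a peak at 1 or more of its start sites. By this rule ATAC-seq marked 8 of 8 genes against 67.8% of all protein-coding genes, H3K4me3 marked 7 of 8 against 60.8%, and H3K27ac marked 5 of 8 against 46.6%. H3K27me3 marked 0 of 8 against 4.81%, and 0 of 8 had an H3K27me3 promoter peak in even 1 replicate, against 8.49%. *Dmd*, *Utrn*, *Dag1*, *Sgca* and *Sgcb* had all 3 of H3K27ac, H3K4me3 and ATAC-seq in both, 5 of 8 against 46.2%. No gene of the 8 was without a peak of any of these 3 features in either replicate, a state found in 26.2% of protein-coding genes. A gene with more start sites has more chances to be called marked, in this list and in the others. Of the 55 start sites of the 8 genes, ATAC-seq marked 40, H3K4me3 33 and H3K27ac 23. Over all start sites of protein-coding genes the shares were 62%, 53.2% and 42.9%. Shares over 8 genes are coarse, and no test of the list was made.

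**Figure D1:**
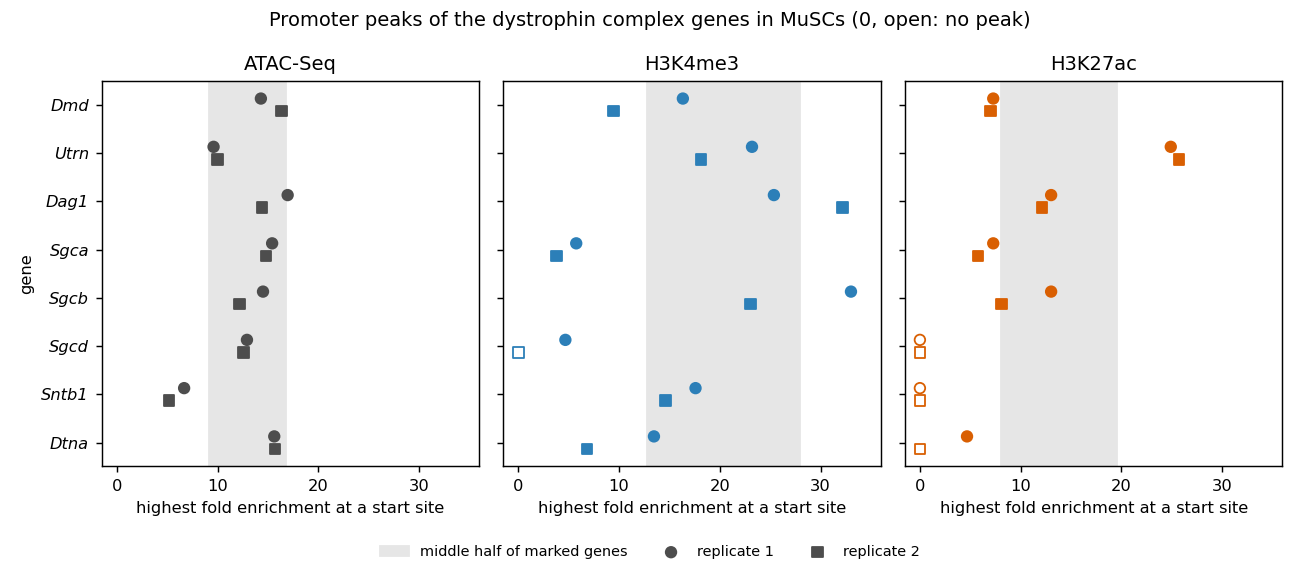
Highest fold enrichment at a start site (x axis) of each gene (y axis) in replicate 1 (circles) and replicate 2 (squares) for ATAC-seq, H3K4me3 and H3K27ac. Open symbols at 0 have no listed peak, and grey bands run from the lower to the upper quartile of all protein-coding genes with a promoter peak (quartiles averaged over the replicates). H3K27ac of *Utrn* lies above the band, while *Sgcd* and *Sntb1* have no H3K27ac peak in either replicate.

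The 3 features did not rank the 8 genes alike. For ATAC-seq the highest folds lay between 6.68 (*Sntb1*) and 17 (*Dag1*) in replicate 1, and between 5.16 (*Sntb1*) and 16.3 (*Dmd*) in replicate 2. For H3K4me3 they spread from 4.67 (*Sgcd*) to 33.0 (*Sgcb*) in replicate 1, and from no peak (*Sgcd*) to 32.2 (*Dag1*) in replicate 2. For H3K27ac, *Utrn* stood highest in both replicates, at 24.9 and 25.7, followed by *Dag1* and *Sgcb*. The order of neighbours such as *Dag1* and *Sgcb* was not held by the replicates, since *Sgcb* was the higher of the pair for H3K4me3 in replicate 1 (33.0 against 25.4) and the lower in replicate 2 (23 against 32.2).

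*Dmd*, the gene of dystrophin (chrX:82948870-85206141, plus strand), is 2257 kb long and has 14 annotated transcripts with 13 start sites. Start sites within 1 kb of each other were joined, which leaves 9 start regions. Of these, 2 carried peaks of H3K27ac, H3K4me3 and ATAC-seq in both, and the other 7 had no peak of any of the 4 features in either replicate. Over all protein-coding genes with 2 or more start regions, 45.3% of the regions were marked by ATAC-seq, 32.8% by H3K4me3 and 25.8% by H3K27ac. The marked regions are the 5′ start of full-length dystrophin and a cluster of 4 start sites in intron 62 of the 79-exon transcript Dmd-203, where the short isoform Dp71 is known to begin. The H3K4me3 summits of the latter lie 2099.7 kb from the first start. The 7 unlisted regions are starts of transcripts that GENCODE does not class as protein-coding. They include 1 each in introns 29, 44 and 55, the introns in which the isoforms Dp260, Dp140 and Dp116 are known to start. At the start in intron 44, the predicted RefSeq start 0.228 kb away had no peak either, nor did the one 0.025 kb from the start in intron 55.

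Both marked starts of *Dmd* were open, and H3K4me3 was higher at the one inside the gene. At the full-length start, the ATAC-seq peak had a fold of 14 and 16.3 in replicates 1 and 2, with summits 119 and 126 bp upstream of the start of the 79-exon transcript. At the start in intron 62 the folds were 14.3 and 8.02. Both are open in both replicates, and neither is higher in both. H3K4me3 at the full-length start reached 4.13 and 3.01, with peaks 834 and 170 bp wide that began 165 and 369 bp downstream of the start. The peak of replicate 2 was a weak one, with a −log10 q of 2.53, where q is the p-value adjusted by the peak caller. At intron 62 it reached 16.3 and 9.42 in peaks 1426 and 1058 bp wide that spanned the start. The higher H3K4me3 fold was thus at intron 62 in both replicates. H3K27ac was 7.28 and 4.05 at the full-length start and 6.51 and 6.99 at intron 62, so its order differed between replicates. At the full-length start, the H3K27ac peaks of the replicates touched only at their edges, from 470 to 894 bp downstream in replicate 1 and from 892 to 1561 bp in replicate 2. A second H3K27ac peak of replicate 1, at 1184 to 1498 bp, lay within that of replicate 2. Where weaker peaks were dropped (−log10 q under 5), the full-length start lost H3K4me3 and H3K27ac in replicate 2, and intron 62 was the 1 start region of *Dmd* left with either mark in both.

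The windows that RefSeq gives for these starts (GRCm38.p6, the same assembly as mm10, 250 bases before to 50 bases after the start) are shown because they are the 2 marked starts of *Dmd*. They lie at chrX:82948620-82948919 and chrX:85048045-85048344, both on the plus strand. Capitals mark the motifs searched on both strands: CAGCTG (an E-box bound by myogenic factors), CCGGAA (ETS), CATTCC (TEAD), TGANTCA (AP-1), GGGCGG (SP/KLF), TATAAA and CACGTG.
Dmd full-length start: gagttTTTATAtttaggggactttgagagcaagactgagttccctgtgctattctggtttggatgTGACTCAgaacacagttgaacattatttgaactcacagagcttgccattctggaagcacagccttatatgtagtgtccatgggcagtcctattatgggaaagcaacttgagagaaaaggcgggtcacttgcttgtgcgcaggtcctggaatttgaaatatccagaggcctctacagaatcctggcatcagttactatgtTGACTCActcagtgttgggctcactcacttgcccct
Dmd intron 62 start: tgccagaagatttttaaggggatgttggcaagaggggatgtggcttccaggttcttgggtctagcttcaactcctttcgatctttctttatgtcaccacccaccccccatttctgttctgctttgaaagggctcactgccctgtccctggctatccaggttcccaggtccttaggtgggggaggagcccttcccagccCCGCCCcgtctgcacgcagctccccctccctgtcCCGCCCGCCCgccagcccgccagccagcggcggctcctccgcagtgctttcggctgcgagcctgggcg
The full-length window is 45.7% G and C with 2 CG dinucleotides and holds 2 matches of the AP-1 motif and 1 of TATAAA. The window at intron 62 is 62.7% G and C with 14 CG dinucleotides and holds 3 matches of the SP/KLF motif, 2 of which overlap. Among 93513 start windows of protein-coding genes the median was 55% G and C and 9 CG dinucleotides. A match of TGANTCA was found in 6.69% of them, of TATAAA in 11.5% and of GGGCGG in 38.5%. A match says only that these letters stand in the window.

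**Figure D2:**
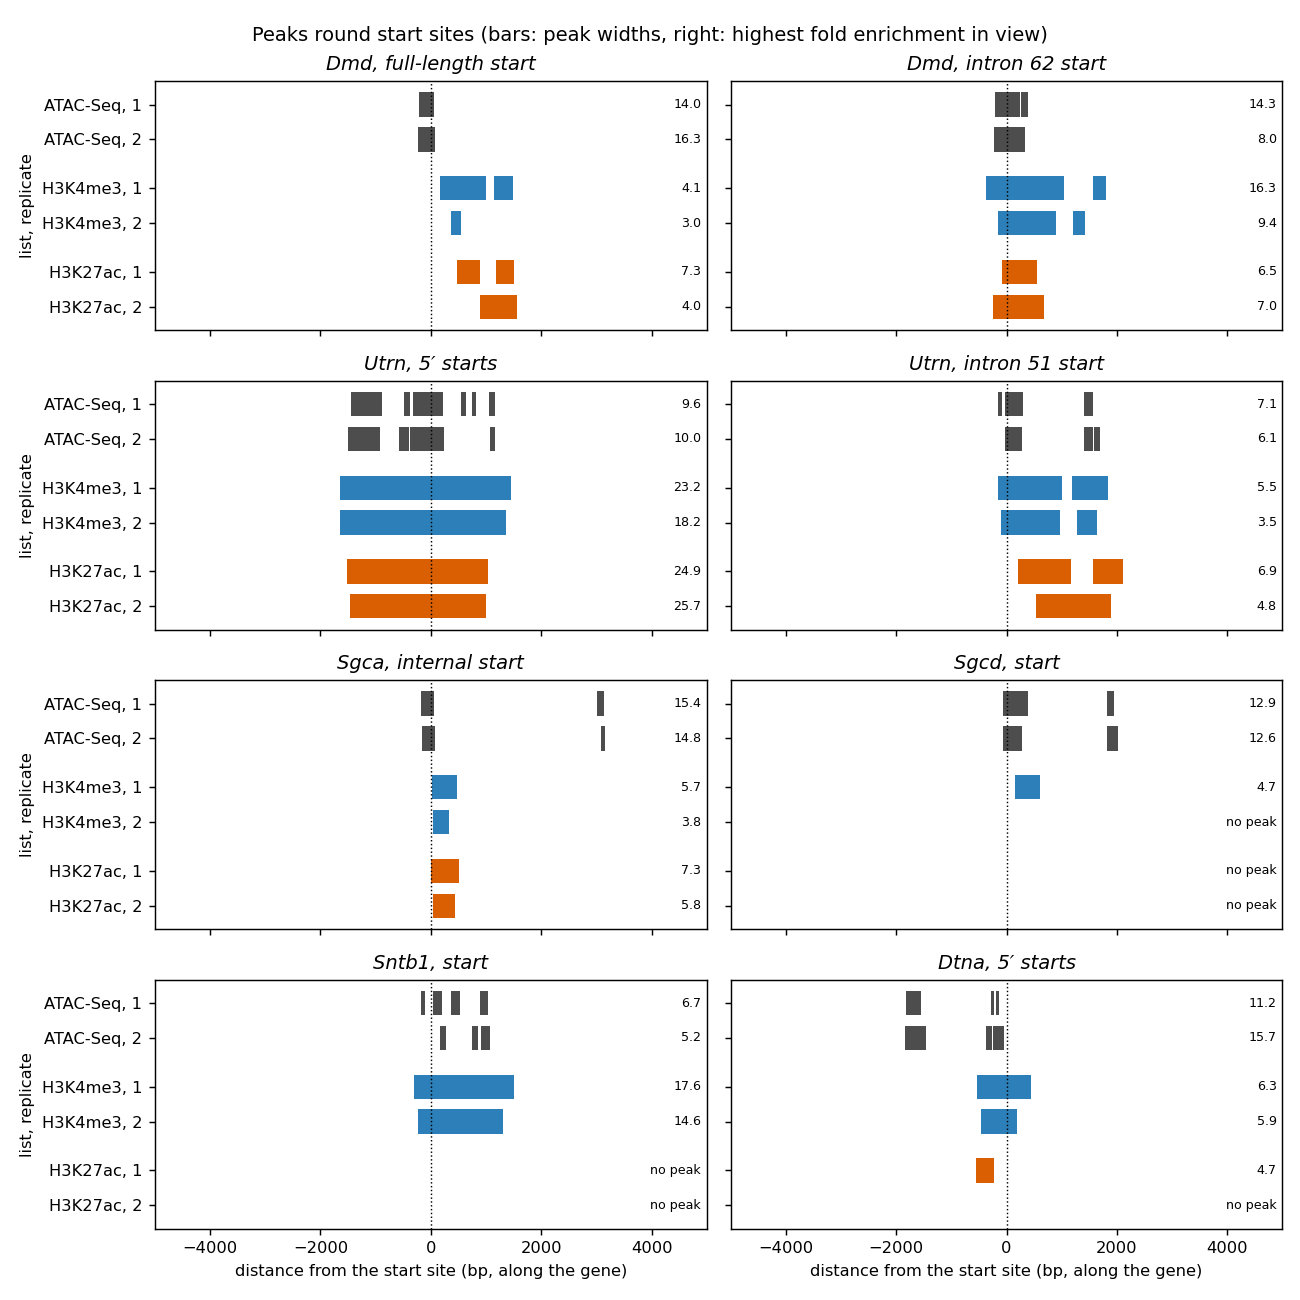
Peaks within 5 kb of 8 start sites, with distance from the start along the gene on the x axis (bp) and the replicates of ATAC-seq, H3K4me3 and H3K27ac on the y axis. Bars show peak widths and the numbers at the right the highest fold enrichment in view. The H3K4me3 and H3K27ac peaks at the *Utrn* 5′ starts are the widest of these 8 views, and the H3K4me3 and H3K27ac peaks of full-length *Dmd* lie downstream of the open site.

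*Dmd* lies on the X chromosome, where promoter folds of H3K4me3 and H3K27ac were lower than on the autosomes. The median highest promoter fold of H3K4me3 among marked genes was 13.4 and 9.82 on the X in replicates 1 and 2, and 24.5 and 17.9 on the autosomes. For H3K27ac it was 8.43 and 7.72 on the X and 14.2 and 12.1 on the autosomes, and for ATAC-seq 14.1 and 12.3 against 13.3 and 12.2. The *Dmd* promoter values of H3K4me3, 16.3 and 9.42, and of H3K27ac, 7.28 and 6.99, are thus close to the medians of the X, while among all marked genes they stood at percentiles 29.2 and 19.1 for H3K4me3 and 18.3 and 19.3 for H3K27ac. What part the chromosome has in these values was not tested.

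Away from start sites, *Dmd* had few open sites that both replicates listed. In the gene and 20 kb on either side, replicate 1 listed 28 ATAC-seq peaks and replicate 2 listed 6. Only 7 and 5 of them were shared, with 3 in each replicate away from any start site. They lie in intron 1, 7.15 kb from the first start (fold 7.15 and 5.86), in intron 60 (10.9 and 11.1) and in intron 63 (7.83 and 8.02). Beside the open site in intron 60, replicate 1 alone had an H3K27ac peak, with a fold of 3.83. The ATAC-seq peak of the gene with the highest fold, at chrX:83020747-83020868 in intron 1 (fold 101, 122 bp wide), was listed in replicate 1 only. Further upstream, outside the annotated gene, a start of 1 predicted RefSeq transcript of *Dmd* lies 134 kb before the full-length start. It had ATAC-seq peaks in both replicates (10.9 and 10.8), H3K27ac in both (4.22 and 4.78) and H3K4me3 in replicate 1 only (4.67).

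**Figure D3:**
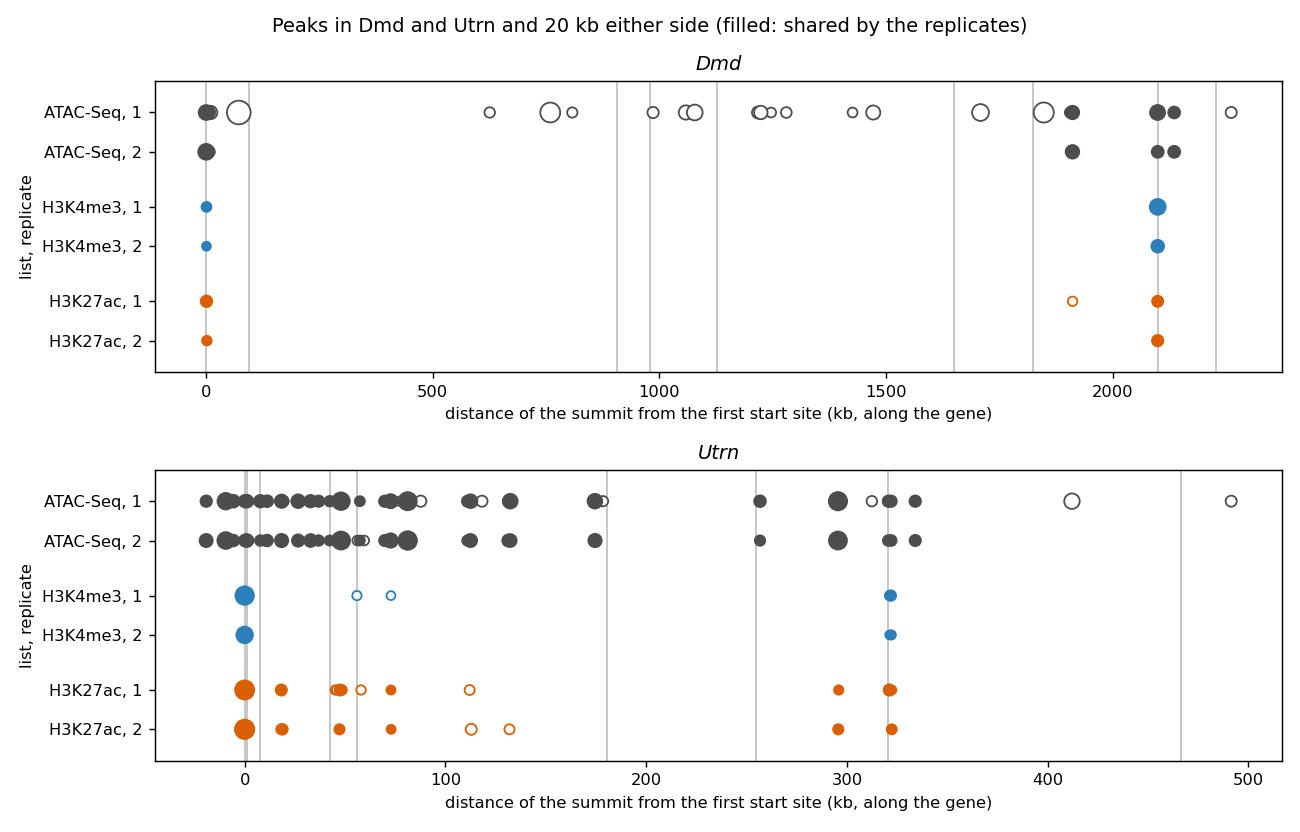
Peaks along *Dmd* and *Utrn* with 20 kb on either side. The x axis gives the distance of a summit from the first start site in kb along the gene and the y axis the list and replicate. Filled circles are shared by the replicates, larger circles have a higher fold, and grey lines are start regions. H3K4me3 in *Dmd* stands at 2 of 9 start regions, and most ATAC-seq peaks of replicate 1 between them are open circles.

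*Utrn*, the gene of utrophin (chr10:12382188-12869365, minus strand), is 487 kb long and, with 13 start sites in 9 start regions, has as many of each as *Dmd*. ATAC-seq marked 7 of these regions in both replicates, H3K4me3 and H3K27ac 3. The pair of regions at the 5′ end share the same peaks. There, H3K4me3 had a fold of 23.2 and 18.2 over 3101 and 3020 bp and H3K27ac a fold of 24.9 and 25.7 over 2551 and 2474 bp, with the H3K4me3 summits 1 and 20 bp from the first start. Among all genes with an H3K27ac promoter peak, *Utrn* stood at percentile 82.6 in replicate 1 and 92.1 in replicate 2. Its ATAC-seq folds of 9.60 and 9.98 stood at percentiles 25.5 and 33.3. By fold, the promoter was therefore among the stronger ones for H3K27ac and below the median for ATAC-seq in both replicates. Fold over local background is not the only measure of a peak. These ATAC-seq peaks were 552 and 617 bp wide with a −log10 q of 75.5 and 89.5. The promoter peaks of *Dmd* with the highest ATAC-seq fold had 37.0 and 48.9.

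The third marked region of *Utrn* is a start in intron 51 (transcript Utrn-206). ATAC-seq reached 7.10 and 6.12 there, H3K4me3 5.52 and 3.54, and H3K27ac 6.95 and 4.76. Every one of these values is below that of the 5′ starts in the same library. The start of the curated RefSeq transcript of *Utrn*, at chr10:12861735, had ATAC-seq peaks alone (9.0 and 5.85). Start regions in intron 2 had H3K27ac, and at 1 region also H3K4me3, in replicate 1 only, with folds from 3.32 to 3.83. Of protein-coding genes with 2 or more start regions, 25.7% had H3K4me3 at 2 or more of them. *Dmd*, *Utrn*, *Dtna*, *Sgca* and *Sgcb* did so, 5 of the 6 such genes here, though in *Sgca* and *Sgcb* the regions are so close that they share peaks, as the 5′ regions of *Utrn* do.

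The 200 bases round the ATAC-seq summit of replicate 2 are shown for the marked regions of *Utrn*, at chr10:12868240-12868439 and chr10:12548705-12548904 (mm10 reference, minus strand), with the same motifs in capitals.
Utrn 5′ peak: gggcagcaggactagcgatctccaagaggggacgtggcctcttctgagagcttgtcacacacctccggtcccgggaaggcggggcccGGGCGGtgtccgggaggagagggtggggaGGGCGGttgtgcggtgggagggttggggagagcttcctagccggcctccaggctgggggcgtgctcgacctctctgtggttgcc
Utrn intron 51 peak: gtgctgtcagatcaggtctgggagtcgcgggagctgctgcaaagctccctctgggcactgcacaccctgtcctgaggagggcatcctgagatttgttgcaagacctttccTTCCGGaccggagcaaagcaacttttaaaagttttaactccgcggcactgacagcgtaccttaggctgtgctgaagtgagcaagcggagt
The 5′ peak is 69.5% G and C and holds 2 matches of the SP/KLF motif. The peak shown for intron 51 is the one that spans the start, with a fold of 5.70. It is 55.5% G and C and holds 1 match of the ETS motif, which 16.8% of all start windows of 300 bases hold.

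Unlike *Dmd*, *Utrn* held many open sites between its starts. ATAC-seq listed 50 and 37 peaks in the gene and its flanks, of which 34 and 32 were shared. Among those away from start sites, the strongest shared ones lay in intron 2, 81.2 kb from the first start (22.2 and 23.4), in intron 51 (22.7 and 21.8) and again in intron 2, 48 kb from the start (20.6 and 22). All of these exceed the ATAC-seq folds at the promoter itself. H3K27ac listed 12 and 9 peaks, and 3 of the 5 H3K27ac peaks shared by the replicates away from the start of any gene, over all 8 genes, were in *Utrn*.

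*Dag1* encodes both subunits of dystroglycan (chr9:108204634-108263958, minus strand). Its 6 start sites form 1 region, with H3K4me3 peaks of 4523 and 2878 bp and folds of 25.4 and 32.2. H3K27ac was 13 and 12.1, and ATAC-seq 17 and 14.4. Upstream of the gene, the replicates shared H3K27ac peaks at 9.85 kb (7.28 and 6.25) and 16.5 kb (6.42 and 5.09) from the first start. By the lower of the replicates these are the first and the third of the shared distal H3K27ac peaks of the 8 genes, and a peak in intron 2 of *Utrn*, 18.2 kb from its start (6.64 and 5.95), is the second. In the intervals of replicate 1, all 3 H3K27ac peaks held ATAC-seq peaks of both replicates. The highest folds were 7.92 and 7.67 in the *Dag1* peak at 9.85 kb, 12.6 and 11.2 in that at 16.5 kb, and 10.8 and 10.6 in the *Utrn* peak. At 16.5 kb these folds belong to different summits, chr9:108280594 in replicate 1 and chr9:108280279 in replicate 2. In replicate 2, H3K27ac at the *Utrn* site was listed as separate peaks (5.95 and 4.34), and the ATAC-seq summit lay in the gap between them. H3K4me3 was also listed at the *Dag1* site at 16.5 kb in both replicates (3.16 and 2.85). At 9.85 kb it was listed in replicate 1 only (3.71), and at the *Utrn* site in neither. Over *Dag1* and its flanks, replicate 1 listed 13 H3K27ac peaks and replicate 2 only 6, and 3 and 4 of these were shared. The 10 that replicate 2 lacks had folds from 2.91 to 5.85.

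The open sites within these distal H3K27ac peaks of replicate 1 are shown as 200 bases round the ATAC-seq summit of replicate 2, on the minus strand of mm10. The *Dag1* sites lie at chr9:108273268-108273467 and chr9:108280179-108280378, and the *Utrn* site at chr10:12850887-12851086. The window at 16.5 kb does not hold the strongest ATAC-seq summit of replicate 1.
Dag1 peak 9.8 kb: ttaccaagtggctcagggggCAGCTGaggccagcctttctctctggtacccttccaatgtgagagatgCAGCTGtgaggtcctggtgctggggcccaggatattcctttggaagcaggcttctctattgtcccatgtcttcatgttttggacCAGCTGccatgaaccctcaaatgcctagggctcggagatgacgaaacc
Dag1 peak 16.5 kb: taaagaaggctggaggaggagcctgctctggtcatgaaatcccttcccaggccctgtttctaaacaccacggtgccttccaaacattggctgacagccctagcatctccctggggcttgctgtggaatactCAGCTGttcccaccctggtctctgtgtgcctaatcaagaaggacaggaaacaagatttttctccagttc
Utrn peak 18.2 kb: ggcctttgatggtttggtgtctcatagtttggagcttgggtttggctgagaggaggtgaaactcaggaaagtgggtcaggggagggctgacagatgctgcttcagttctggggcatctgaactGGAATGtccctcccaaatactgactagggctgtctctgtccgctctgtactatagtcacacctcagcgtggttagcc
The *Dag1* site at 9.85 kb holds 3 matches of the E-box CAGCTG and that at 16.5 kb holds 1, while the *Utrn* site holds none and has 1 match of the TEAD motif. Of all start windows of protein-coding genes, which are 300 bases long, 16.4% hold CAGCTG and 13.2% hold CATTCC. No share was taken over distal sites.

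The sarcoglycan genes differed from each other. *Sgcb* (chr5:73632749-73647790, minus strand), which encodes β-sarcoglycan, had H3K4me3 of 33.0 and 23, H3K27ac of 13 and 8.09 and ATAC-seq of 14.5 and 12.2 at its 5′ start. A second H3K4me3 peak, 3.39 and 3.35 kb upstream (16 and 12.6), lies at the start of the neighbour *Spata18*, which is transcribed away from *Sgcb*. *Sgca* (chr11:94962791-94976327, minus strand), which encodes α-sarcoglycan, a subunit made in muscle fibres, had far lower H3K4me3. The folds were 5.74 and 3.81 in peaks of 461 and 291 bp, at percentiles 7.26 and 2.39 of marked genes. H3K27ac was 7.28 and 5.77. The ATAC-seq folds of *Sgca* did not follow this, since 15.4 and 14.8 stood at percentiles 63.5 and 68.3.

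All promoter peaks of H3K4me3 and H3K27ac in *Sgca* lie by internal starts (transcripts Sgca-201 and Sgca-204), about 3 kb from the 5′ start, and the H3K4me3 summits are 3.04 and 3.08 kb from it. The 3 start regions of the gene are so close that each counts these peaks as its own. Upstream of the 5′ start, replicate 1 alone had an H3K27ac peak before those of the next gene, 3.20 kb away (3.45). In the flanks, 1 and 3 H3K4me3 peaks belong to the start of *Ppp1r9b*. The open site of *Sgca* is shown because the gene's marks gather there (chr11:94973438-94973637, mm10, minus strand).
Sgca internal peak: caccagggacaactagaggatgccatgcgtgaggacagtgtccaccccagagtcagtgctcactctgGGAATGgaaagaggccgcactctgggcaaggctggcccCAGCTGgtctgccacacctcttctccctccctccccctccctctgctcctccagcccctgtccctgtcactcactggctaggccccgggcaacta
It holds 1 match of the E-box CAGCTG and 1 of the TEAD motif and is 63.5% G and C with 3 CG dinucleotides.

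*Sgcd* (chr11:46896253-47988969, minus strand) encodes δ-sarcoglycan and is 1093 kb long with 4 start regions. Only the start of the transcript Sgcd-201 was open in both replicates, with folds of 12.9 and 12.6. H3K4me3 was listed there in replicate 1 alone (4.67, 447 bp wide), and no H3K27ac peak was listed anywhere in the gene or 20 kb on either side. The most upstream start of the annotated gene (Sgcd-203) had an ATAC-seq peak in replicate 1 only (7.49). Within the gene, the replicates shared an open site in intron 6 with folds of 18.4 and 21.9, above those of the start. *Sgcd* is the single gene of the 8 that was open in both replicates without H3K4me3 or H3K27ac listed in both. The window of its RefSeq start is shown as that of this open site (chr11:47379276-47379575, minus strand).
Sgcd start: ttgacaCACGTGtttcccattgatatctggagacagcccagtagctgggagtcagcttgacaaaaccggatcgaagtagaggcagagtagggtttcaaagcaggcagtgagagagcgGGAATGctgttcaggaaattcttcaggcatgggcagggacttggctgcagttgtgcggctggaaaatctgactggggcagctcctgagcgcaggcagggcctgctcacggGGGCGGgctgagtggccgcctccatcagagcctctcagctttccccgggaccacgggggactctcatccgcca
The window holds 1 match of CACGTG, 1 of the TEAD and 1 of the SP/KLF motif and is 59% G and C.

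*Sntb1* (chr15:55636388-55906949, minus strand), which encodes β1-syntrophin, was marked by H3K4me3 without H3K27ac. H3K4me3 reached 17.6 and 14.6 in peaks of 1804 and 1543 bp over its 1 start region. No H3K27ac peak was listed in the gene or its flanks in either replicate. Of the protein-coding genes with ATAC-seq and H3K4me3 in both replicates, 17.6% had no H3K27ac promoter peak in either. Its ATAC-seq folds of 6.68 and 5.16 were the lowest of the 8 genes, at percentiles 10.7 and 5.81 of marked genes. In the gene body 9 and 8 shared ATAC-seq peaks lay away from start sites, with folds from 4.77 to 7.37 in replicate 1 and from 4.8 to 8.91 in replicate 2.

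*Dtna* (chr18:23415135-23659715, plus strand) encodes α-dystrobrevin. It had H3K4me3 in both replicates at 2 of 5 start regions, the 5′ cluster of 6 start sites (6.30 and 5.94) and a start in intron 2 (13.5 and 6.81). The H3K4me3 summits of the latter lie 1048 and 1013 bp from the start in intron 2, which is that of a transcript not classed as protein-coding. A start of 4 curated RefSeq transcripts, 0.647 kb from that GENCODE start and in exon 3, lies within the H3K4me3 peak of replicate 1. The peak of replicate 2 begins downstream of it. Both regions were open, with highest ATAC-seq folds of 11.2 and 15.7 at the 5′ cluster and 15.6 and 13.4 inside the gene. The peaks of 11.2 and 15.7 lay upstream of the cluster and outside its H3K4me3 peaks. In replicate 2 the summit was 1325 bp from the nearest start. Within the H3K4me3 peaks of the cluster, the highest ATAC-seq folds were 4.56 and 5.76 in replicates 1 and 2. Inside the gene, the peak of 15.6 in replicate 1 had its summit 1378 bp from the start. H3K27ac was listed at the 5′ cluster in replicate 1 only (4.68). A group of RefSeq starts of *Dtna* 105 kb upstream of the GENCODE gene had H3K4me3 of 19 and 16.2, more than any GENCODE start of the gene in the same library. ATAC-seq was 10.5 and 9.21 there, and H3K27ac was listed in replicate 1 only (4.6). Sequences of *Dtna* are not shown.

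The 5 genes of 100 kb or more were set against all 2492 protein-coding genes of that length. ATAC-seq listed 12.2 and 2.61 peaks per Mb in *Dmd* with its flanks, and 18.5 and 3.53 in *Sgcd*. The medians of the long genes were 59.6 and 38 per Mb, and *Dmd* stood at percentiles 6.90 and 8.87 and *Sgcd* at 13.9 and 9.95. The long genes were not matched for length. *Dmd* (2257 kb) and *Sgcd* (1093 kb) are the longest of the 5, and the part of length in these ranks was not tested. *Utrn* had 94.8 and 70.2 per Mb, at percentiles 69.5 and 70.0, while *Sntb1* (70.8 and 45.1) and *Dtna* (38.7 and 42.2) were nearer the medians. Counting only peaks that both replicates listed gave 3.05 and 2.18 per Mb in *Dmd* and 64.5 and 60.7 in *Utrn*. In both counts and both replicates *Dmd* was the sparsest of the 5 genes and *Utrn* the densest. On the X as a whole, ATAC-seq listed 18.9 and 9.21 peaks per Mb, against 55.8 and 37.7 on the autosomes. *Dmd* was below the X in both replicates, and the part of the chromosome in its low density was not tested.

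**Figure D4:**
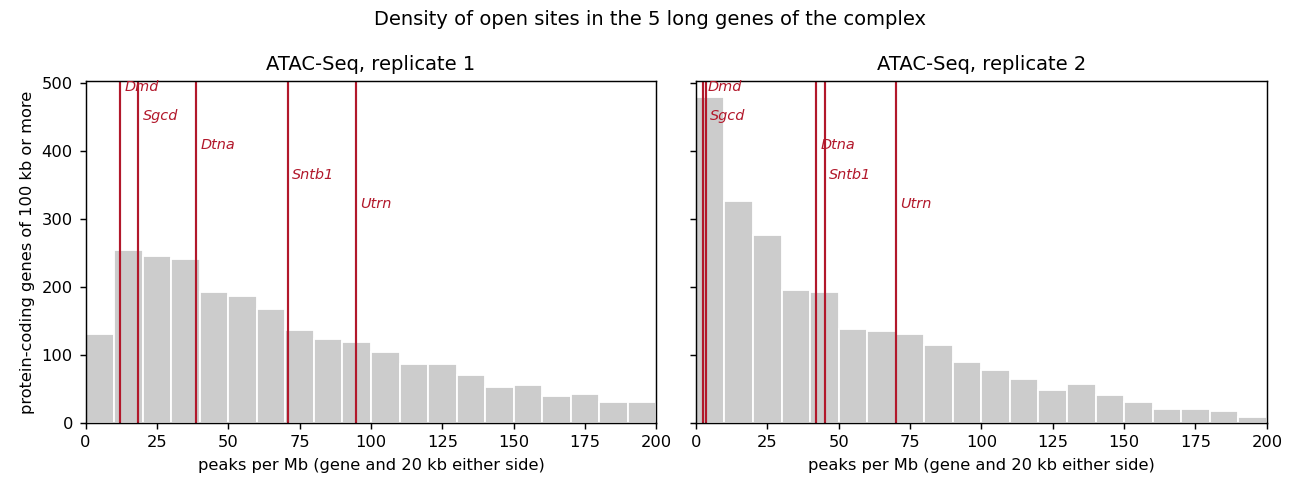
Number of protein-coding genes of 100 kb or more (y axis) by ATAC-seq peaks per Mb of gene and 20 kb on either side (x axis, up to 200), in each replicate. Red lines give the 5 long genes of the complex. *Dmd* and *Sgcd* lie at the left in both replicates and *Utrn* to the right of the others.

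Of the ATAC-seq peaks in the 8 genes and their flanks, 56.7% of 171 in replicate 1 and 85.0% of 107 in replicate 2 were shared, against 62.9% and 84.7% over the whole lists. For H3K4me3, 68.2% of 22 and 94.7% of 19 were shared (79.0% and 98.7% over the lists), and for H3K27ac 45.9% of 37 and 81.8% of 22 (64.6% and 91.0%). Replicate 1 of ATAC-seq held 1526 peaks with a fold of 40 or more, of which 2.95% were shared, and the unshared ones had a median width of 121 bp. In the 8 genes there were 5 such peaks, 1 in *Dmd*, 3 in *Sgcd* and 1 in *Sntb1*, with folds from 55.7 to 101, and 0 of them were shared. In replicate 2 all ATAC-seq peaks with a fold of 10 or more, over the whole list, were shared. Over the whole H3K27me3 lists, 68.3% and 34.8% of the peaks were shared, with median widths of 176.5 and 181 bp and median folds of 3.93 and 3.76. The absence of H3K27me3 at the 8 genes is therefore limited by these lists. The single H3K27me3 peak in the 8 genes and their flanks was listed in replicate 2 near *Sgcb* (88 bp, fold 3.76), 5.57 kb upstream of the gene and by the start of *Spata18*.

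The other genes of the complex and its partners were described by 4 lists, of 35 genes in all. Of these, 34 had ATAC-seq, 31 H3K4me3, 26 H3K27ac and 1 H3K27me3 at a promoter in both replicates. The shares over all protein-coding genes were 67.8%, 60.8%, 46.6% and 4.81%. The 12 further parts of the complex were the most mixed, with 11 marked by ATAC-seq, 9 by H3K4me3 and 5 by H3K27ac, the last a share below that of all protein-coding genes. *Drp2*, *Sspn*, *Sntb2* and *Dtnb* were among those with all of these. In *Cav3*, the caveolin of muscle fibres, only ATAC-seq was listed (9.45 and 14.9). *Nos1*, the nitric oxide synthase that the complex docks in muscle fibres, was the 1 gene with H3K27me3 in both replicates (3.38 and 4.45), beside H3K4me3 (5.56 and 4.81) and ATAC-seq (12 and 14.5). This H3K27me3 call was lost with a promoter of 1 kb and when peaks with q above 0.05 were left out.

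All 12 enzymes that build the laminin-binding glycan of dystroglycan, among them *Pomt1* and *Pomgnt1*, had H3K27ac, H3K4me3 and ATAC-seq in both replicates. Of all protein-coding genes, 46.2% had all 3 of these. Of the 7 genes of matrix ligands, 7, 6 and 5 were marked by ATAC-seq, H3K4me3 and H3K27ac. *Lama2*, the laminin chain of the muscle basement membrane, had H3K4me3 of 16.7 and 7.60 and H3K27ac of 4.62 and 9.92, whereas *Lamb1* had no H3K27ac peak. The 4 cytoplasmic partners, *Mark2*, *Plec*, *Ank2* and *Ank3*, had all 3 features. *Mark2*, the kinase that binds dystrophin in MuSCs, had H3K4me3 of 33.6 and 23 and H3K27ac of 20.8 and 16.6, and *Ank2* had an H3K27me3 peak in replicate 2 only (3.76). Every gene of the 4 lists had a peak of at least 1 of these 3 features in 1 or both replicates. *Sntg1*, of the further parts of the complex, had none of them in both, only an ATAC-seq peak in replicate 1 (5.79).

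**Figure D5:**
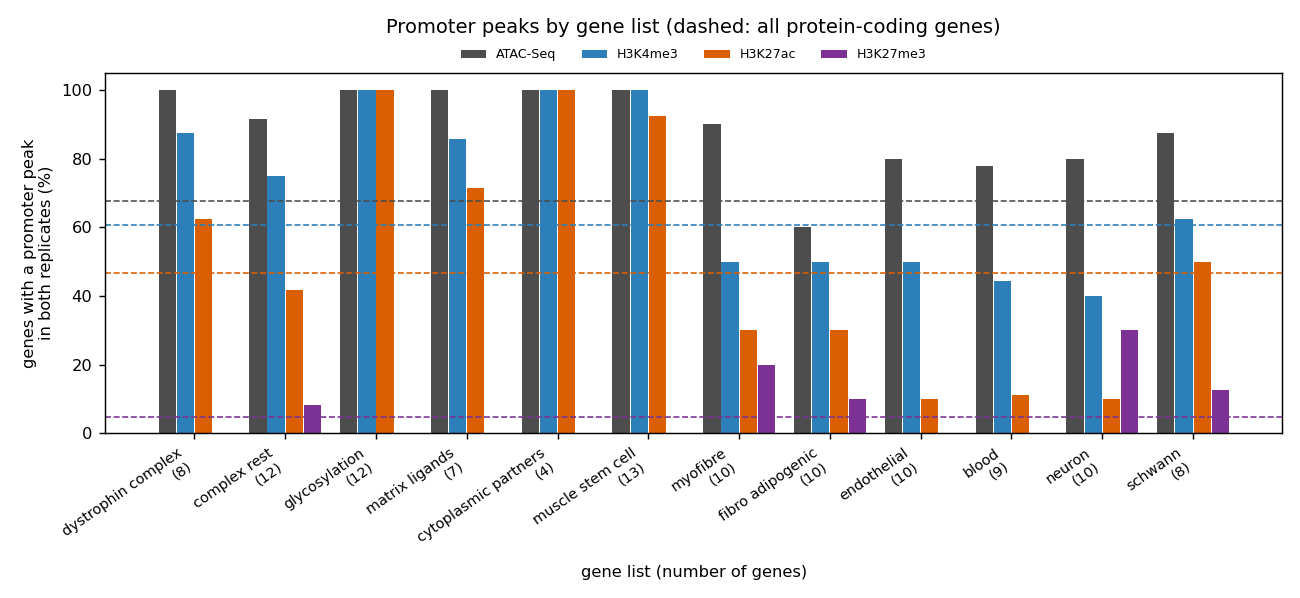
Share of genes (y axis, percent) with a promoter peak in both replicates, by gene list (x axis, number of genes in brackets) and feature (bars). Dashed lines give all protein-coding genes in the colour of the feature. Every bar of the glycosylation list for ATAC-seq, H3K4me3 and H3K27ac stands at the full height, and the lists of other cell types have lower H3K27ac than the MuSC markers.

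By their promoter folds, *Dmd* and *Utrn* resembled different genes. The likeness was the Euclidean distance of log2(1 + highest promoter fold) over the 8 lists, where the median distance of all protein-coding genes was 4.35 from *Dmd* and 6.72 from *Utrn*. Nearest to *Dmd* were *Ciart* (0.205), *Pigo* (0.286) and *Naa10* (0.290). Nearest to *Utrn* were *Alkbh5* (0.253) and, at an equal distance of 0.272, *Jmjd8* and *Stub1*, which have the same promoter values. These distances take the highest fold of any start, so for *Dmd* they combine values of the full-length start and the start in intron 62.

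The 34 start regions of the 8 genes also differed in base composition. The 14 regions with H3K4me3 in both replicates had a median of 57.3% G and C (range 43.3 to 75.3) and 8.5 CG dinucleotides in windows of 300 bases placed on GENCODE starts. The 20 without had 45.3% (range 28.3 to 75.7) and 3, so that the ranges overlap. GGGCGG was found in 7 of the 14 and in 2 of the 20, and TATAAA in 1 and 4. CAGCTG was found in 3 of 14 and 2 of 20, and CATTCC in 4 and 3. Of all start windows of protein-coding genes, 38.5% hold GGGCGG, 11.5% TATAAA, 16.4% CAGCTG and 13.2% CATTCC. Their medians were 55% G and C and 9 CG dinucleotides, near those of the 14 regions. Among the windows with H3K4me3, CG dinucleotides ranged from 2 at the full-length start of *Dmd* to 47 at *Dag1*. Regions of 1 gene that share peaks are counted apart here.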

How the data were processed

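Per the labels and the methods of the study, the authors trimmed reads with Trim Galore 0.6.10, aligned them to mm10 with BWA 0.7.17-r1188, dropped duplicates, poorly mapped reads and reads in blacklisted regions (SAMtools 1.5, bedtools), shifted ATAC-seq reads for the Tn5 offset (deepTools 3.5.5) and called peaks per library with MACS2 2.2.6. The deposited lists give for each peak the fold enrichment at the summit, the −log10 p-value and −log10 q-value, and a score that follows from them. The H3K27me3 lists also hold peaks with q above 0.05. No read numbers were used, so the depth and any counting error are unknown.

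Peaks on 21 assembled chromosomes were joined to GENCODE M21 with Python 3.11.15, numpy 2.4.6 and pandas 2.3.3, and plotted with matplotlib 3.10.9. A peak counted at a start site if 1 bp of it lay within 3 kb, and as shared if it overlapped a peak of the other replicate by 1 bp. A distal peak touches no such window of any gene. Percentiles are among genes with a peak in that replicate. The joins were tested on 4000 simulated intervals, and 100% of the planted values were recovered. Start windows were matched by symbol to RefSeq (GRCm38.p6), which gave 8 windows for 6 of the 8 genes. Motifs were searched on both strands.

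The genes and lists were chosen with earlier results of these data known. The rule for naming took all 8 genes, the highest promoter peak of each feature, the 3 shared distal H3K27ac peaks with the highest lower fold, every H3K27me3 peak, listed genes with H3K27me3 or with no feature, and the 3 nearest genes to *Dmd* and *Utrn*. Other genes of the 4 lists and other distal ATAC-seq peaks were named after their values were seen. Values of some listed genes are not reported here. With 1 group of 2 replicates, no test between groups was made. Alternatives were a promoter of 1 kb, summits only, protein-coding starts, either replicate, stricter q, other flanks and overlaps, equal numbers of peaks and each replicate alone. The starts of RefSeq and leaving out unshared ATAC-seq peaks of fold 40 or more were chosen after seeing the data.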

Additional observations from a re-analysis of the deposited data

How the results depend on the processing

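Of 95 values of the main counts under an alternative, 85 stayed within 1.5 times the main count or its spread and 10 did not. For the 8 genes, promoter counts of every feature were among those that stayed. In the 35 listed genes the count with H3K27me3, 1 in the main analysis, was 0 with a promoter of 1 kb, with a −log10 q of at least 5 or with q of at most 0.05, since *Nos1* was lost, and 2 with a peak in either replicate, since *Ank2* was gained. Taken from 1 replicate it was between 1 and 2. The mean number of H3K27me3 peaks in the 8 genes and their flanks, 0.5, was 0 without flanks and 0 with a −log10 q of at least 5, and between 0 and 1 from single replicates. The mean number of H3K27ac peaks, 29.5, fell to 16 with a −log10 q of at least 5. Of 337 further values, for single genes and for start sites summed over the 8 genes, 8 moved, all of them for single genes. *Sgcd* gained H3K4me3 and *Dtna* H3K27ac when a peak in either replicate sufficed or replicate 2 was left out, and *Utrn* then had H3K27ac at 5 start regions in place of 3. *Dmd* kept H3K4me3 and H3K27ac at 1 start region in place of 2 with a −log10 q of at least 5.

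No paired analysis was possible because the 8 libraries form 1 group and no value comes from a test between groups. Peak lists without read numbers cannot separate a missing mark from a shallow library, and 2 replicates give a range only. ATAC-seq and the 3 histone marks were listed at different total numbers, so counts of different features are not on 1 scale.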
